A study of Arabidopsis thaliana with 39 samples.

Results

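The comparison described is that of root epidermis from seedlings kept for 18 h on iron-free (-Fe) medium with root epidermis from seedlings kept for 18 h on iron-containing (+Fe) medium. Its members are all 806 genes of the deposited table, of 806 in all, and the 2 groups hold 6 of the 39 libraries of the series. The -Fe group comprised 3 libraries of seedlings that were moved on day 7 from +Fe medium to medium with 300 μM ferrozine, an iron chelator. The +Fe group comprised 3 libraries of seedlings moved at the same age to fresh medium with 0.1 mM FeEDTA. For -Fe medium the sample labels give no FeEDTA, whereas the Methods describe both media with it. All seedlings were Arabidopsis thaliana of the pWER::GFP line, in which the WEREWOLF promoter drives green fluorescent protein in the root epidermis, and GFP-positive protoplasts were collected by fluorescence-activated sorting. The +Fe seedlings at 0 h, before transfer, and both media at the other times are used beside them.

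The table gives a single RPKM value (reads scaled by gene length and read total) for each gene and group, so no spread between libraries, test or p-value could be computed from it for the differences below. The measure of difference was the log2 ratio of RPKM + 1, -Fe over +Fe, and it understates differences of low genes. A gene was counted as higher or lower past 0.75 on this scale, about 1.68-fold, which is the size threshold of the study. The study also required a limit on the false discovery rate from its test on libraries, which could not be applied here. Counts by size alone are therefore not the study's counts of differentially expressed genes. The read depth is unknown. The table is one of differentially expressed genes, so the 806 are a selected set, and a share of them is not a share of the transcriptome. In sorted bulk cells, fewer cells of a type and less RNA per cell cannot be told apart.

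Of the markers of other cell types, the 806 genes hold 0 of 2 for the cortex, 0 of 5 for the endodermis and 0 of 7 for the stele, and those are not analysed here. Of 18 markers of the epidermis and root hairs, GL2 and GL3 were among the 806. GL2, a regulator of non-hair cell fate, was at 173 RPKM on -Fe and 187 RPKM on +Fe medium, and GL3, a bHLH protein that acts with WEREWOLF to switch GL2 on, at 32.6 and 28.5 RPKM. Of 5 markers of the root cap and quiescent centre, the cap genes BRN1 and CEL5 were present, BRN1 at 2057 RPKM on -Fe and 1972 RPKM on +Fe medium and CEL5 at 1666 and 1554 RPKM. The 2 cap genes were thus far above GL2 and GL3 per length of gene in both media. The WEREWOLF promoter is known to be active in the lateral root cap as well, and the WEREWOLF gene itself was not analysed here. At 18 h the log2 ratios of these 4 genes lay between -0.10 and 0.19. GL2 and GL3 were lower past the threshold at 12 h and 24 h.

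Arabidopsis takes up iron by reducing ferric iron at the root surface with FRO2 and carrying ferrous iron into epidermal cells with IRT1, while proton pumps and secreted coumarins help to dissolve iron in the soil. The transcription factor FIT acts together with the subgroup Ib factors bHLH38, bHLH39, bHLH100 and bHLH101 to switch these genes on, and BTS and BTSL ubiquitin ligases and the small IMA peptides adjust the response. Ferritins store iron in plastids and are made when iron is plentiful.

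At 18 h, 55 of the 806 genes were higher on -Fe medium (6.82%) and 92 were lower (11.4%), together 147 (18.2%). At the upper end stood transporter genes for iron and copper, IRT1 and COPT2, and the iron regulator gene bHLH38. At the lower end stood the nitrate transporter gene NRT2.6, the inositol oxygenase gene MIOX4 and the asparagine synthetase gene DIN6. The ratios ran from -5.55 for NRT2.6 to 4.72 for IRT1, with a median of 0.02 over all 806 genes. The median absolute ratio was 0.22, the smallest of the course, and the medians at 6, 12, 24, 30 and 36 h were 0.50, 0.45, 0.53, 0.45 and 0.31. A ratio under 0.25 in size was found for 425 genes.

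**Figure D1:**
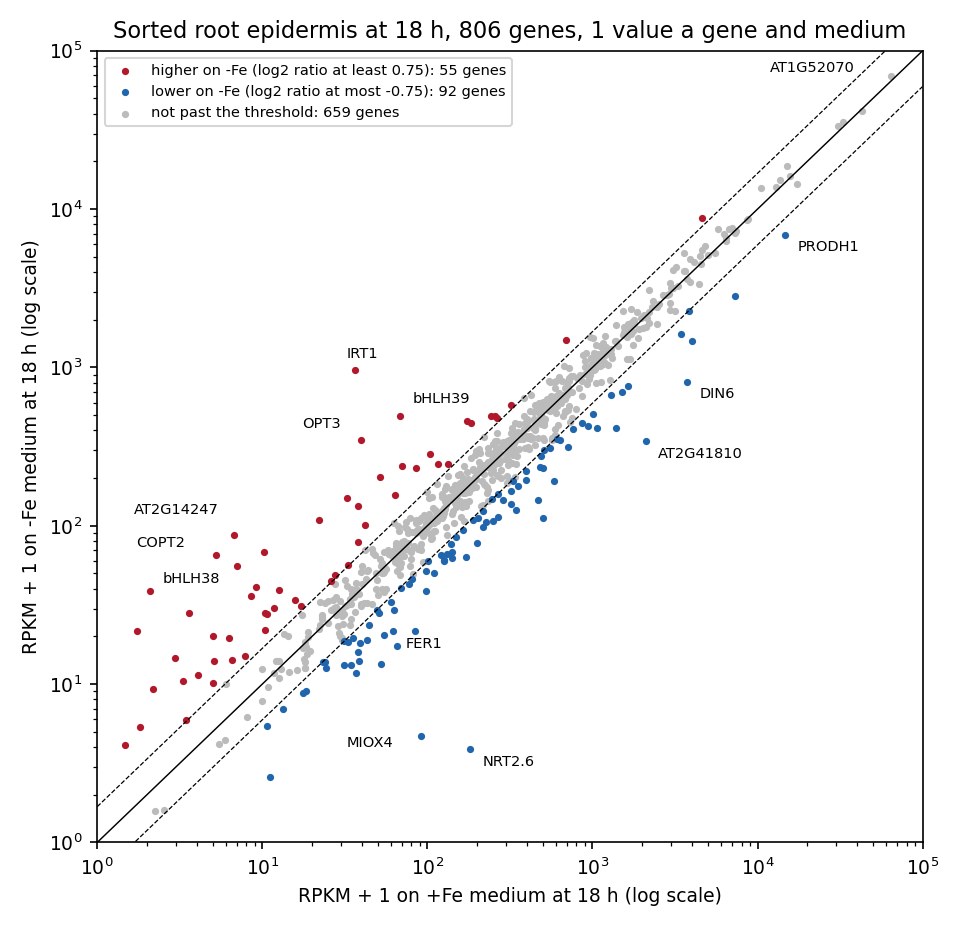
RPKM + 1 on -Fe medium at 18 h (vertical, log scale) against RPKM + 1 on +Fe medium at 18 h (horizontal, log scale) for 806 genes. Points are genes, the solid line marks equal values and the dashed lines mark log2 ratios of 0.75 and -0.75. The 55 higher genes lie mostly among low and middling values on +Fe medium, and the 92 lower genes are spread over the whole range.

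Past a log2 ratio of 2 in size there were 16 higher genes and 6 lower ones, between 1 and 2 there were 28 and 44, and between 0.75 and 1 there were 11 and 42. The members nearest the threshold show how fine the division is. AT1G76620 (0.764) and NIT4 (0.769) were just inside on the upper side and DGAT3 (0.746) just outside, and AT2G36885 (-0.751) was just inside on the lower side and LBD39 (-0.748) just outside.

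The lists by role used from here on were drawn up with earlier results of these data known. Their counts stand beside shares of 6.82% higher and 11.4% lower over all 806 genes. Among the genes of iron uptake, 7 of 17 listed genes were among the 806, of which 5 were higher and 1 was lower. IRT1, the main transporter of ferrous iron into the root, was at 959 RPKM on -Fe and 35.4 RPKM on +Fe medium (log2 ratio 4.72), with 19.5 RPKM before transfer. Its neighbour and relative IRT2 was at 55.0 RPKM on -Fe and 6.01 RPKM on +Fe medium (3.00). Both transporter genes thus differed mainly through a high -Fe value, with +Fe values that were low at 0 h and at 18 h. The ferric reductase genes differed less. FRO4 was at 13.6 RPKM on -Fe and 1.97 RPKM on +Fe medium (2.30), and FRO3, a reductase of mitochondria, at 243 and 114 RPKM (1.08). FRO2, the reductase of the root surface, was at 489 RPKM on -Fe and 382 RPKM on +Fe medium, a ratio of 0.36 that did not reach the threshold, and its level was already 354 RPKM at 0 h. The proton pump gene AHA7 was at 9.18 RPKM on -Fe and 4.03 RPKM on +Fe medium (1.02), below its 20.9 RPKM at 0 h in both. Its ratio was 0.17 against the mean of +Fe at 12 h and 24 h, and its exons share bases with other genes on both strands. F6'H1, a dioxygenase that makes coumarins, was the lower gene, at 45.3 RPKM on -Fe and 80.1 RPKM on +Fe medium (-0.81), and shares 67 exon bases with a gene on the opposite strand. With a pseudocount of 10 its ratio was -0.70, under the threshold, and that of AHA7 was 0.45.

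Of 18 listed regulators of the iron response 7 were among the 806, with 5 higher and 0 lower, beside 6.82% and 11.4% of all 806 genes. The subgroup Ib genes stood apart from their partner FIT. bHLH38 was at 37.7 RPKM on -Fe and 1.09 RPKM on +Fe medium (4.21), bHLH39 at 495 and 67.7 RPKM (2.85), and bHLH101 at 133 and 36.8 RPKM (1.83). FIT was at 809 RPKM on -Fe and 701 RPKM on +Fe medium (0.21), both near its 851 RPKM at 0 h. The fold of bHLH38 rests on a +Fe value close to 1 RPKM, and 386 bases of its exons are shared with PIP5K4 on the opposite strand. Among the ubiquitin ligases, BTSL1 was at 101 RPKM on -Fe and 40.8 RPKM on +Fe medium (1.28), and BTS at 183 and 114 RPKM (0.68), short of the threshold. The peptide gene IMA2 was at 8.26 RPKM on -Fe and 1.18 RPKM on +Fe medium (2.09) and was listed at 0 at 0 h, and with a pseudocount of 10 its ratio was 0.71.

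Genes that store or move iron went both ways, with 2 higher, 3 lower and 1 not past among the 6 of 21 listed genes in the table. OPT3, which loads iron into the phloem and takes part in signalling iron status, was at 345 RPKM on -Fe and 38.5 RPKM on +Fe medium (3.13). MTP3, which moves zinc into the vacuole, was at 67.6 and 9.26 RPKM (2.74). All 3 ferritin genes in the table were lower on -Fe medium. FER1 was at 20.6 RPKM on -Fe and 60.8 RPKM on +Fe medium (-1.52), FER4 at 12.2 and 30.3 RPKM (-1.25), and FER3 at 158 and 267 RPKM (-0.76). On +Fe medium too they were below their 0 h values of 230, 50.8 and 492 RPKM. The ratio of FER3 was just past the threshold and fell short of it with a pseudocount of 10 (-0.72), and 118 exon bases of FER4 lie in AT2G40290 on the same strand. NRAMP4, a vacuolar iron exporter, was at 288 RPKM on -Fe and 233 RPKM on +Fe medium (0.31).

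Of 15 genes for zinc, copper and manganese 2 were among the 806. COPT2, a copper importer of the plasma membrane, was at 64.3 RPKM on -Fe and 4.21 RPKM on +Fe medium (3.65), while the zinc transporter gene ZIP5 had a ratio of -0.39. Other genes among the 12 highest were AT2G14247, an uncharacterized protein (86.5 RPKM on -Fe and 5.72 RPKM on +Fe medium, 3.70), the defensin-like AT1G13609 (20.6 and 0.75 RPKM, 3.63, and listed at 0 at 0 h), the 14-3-3 protein gene GRF11 (27.2 and 2.61 RPKM, 2.96) and the predicted methyltransferase AT2G41380 (107 and 21.0 RPKM, 2.30). AT2G41380 differed from the rest of the 12 in that its -Fe value was close to the 118 RPKM listed at 0 h, and the +Fe value was the one away from it. AT2G14247 shares 233 exon bases with a gene on the opposite strand.

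**Figure D2:**
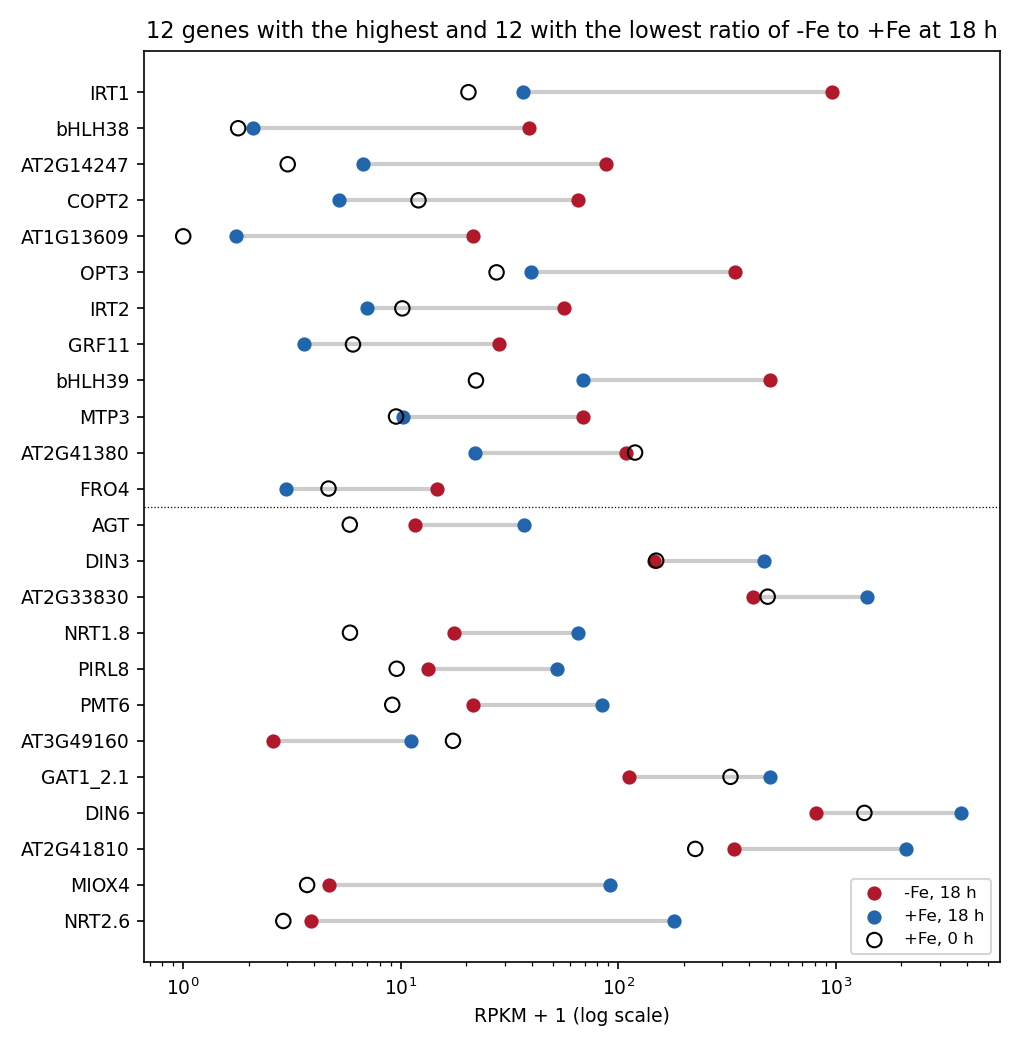
RPKM + 1 (horizontal, log scale) on -Fe medium at 18 h (red), on +Fe medium at 18 h (blue) and on +Fe medium at 0 h (open circles) for the 12 genes with the highest and the 12 with the lowest log2 ratio at 18 h, each row 1 gene with 1 value a group. Among the 12 highest genes the +Fe value is mostly the nearer to 0 h, and among the 12 lowest the -Fe value mostly is.

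**Figure D3:**
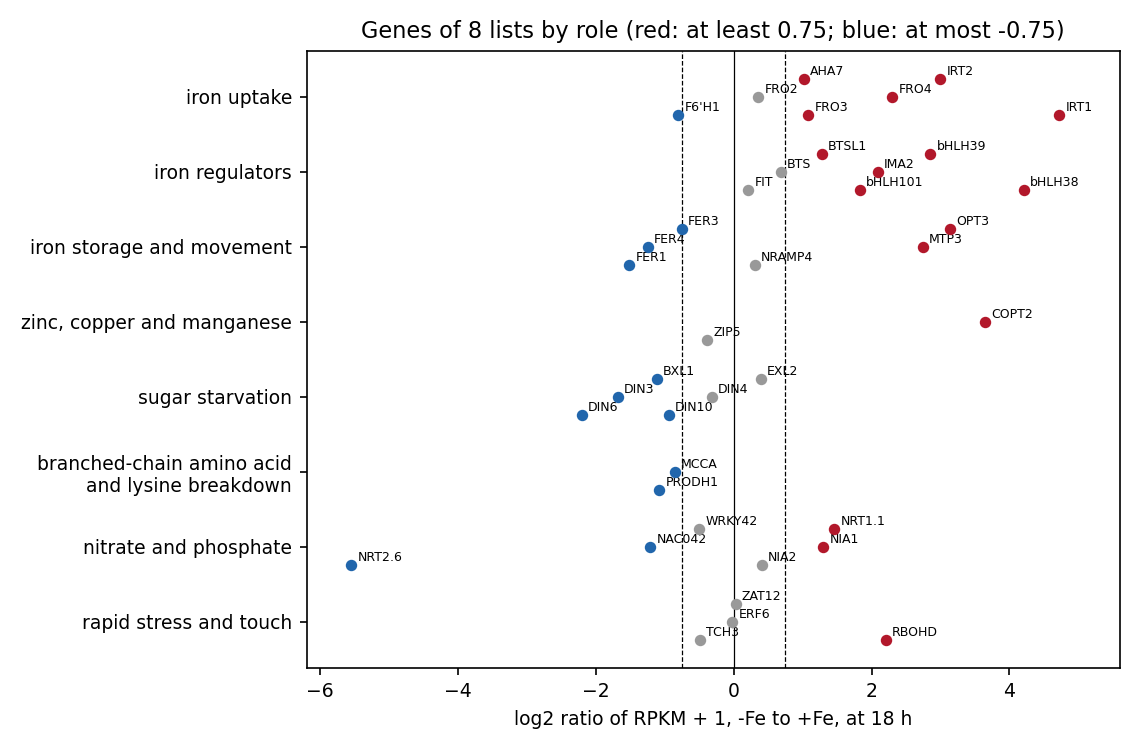
Log2 ratio of RPKM + 1, -Fe over +Fe, at 18 h (horizontal) for the genes of 8 lists by role (vertical), each point 1 gene, with dashed lines at 0.75 and -0.75. The iron uptake and regulator genes lie mostly to the right, the sugar starvation genes mostly to the left, and the nitrate genes on both sides.

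Nitrate genes were found on both sides. Of 12 listed genes for nitrate and phosphate 6 were among the 806, with 2 higher and 2 lower. NRT2.6, a member of the family of high-affinity nitrate transporters, had 2.87 RPKM on -Fe against 180 RPKM on +Fe medium (-5.55) and started from 1.89 RPKM at 0 h. NRT1.1, the dual-affinity nitrate transporter and sensor, was at 285 RPKM on -Fe and 103 RPKM on +Fe medium (1.46), and the nitrate reductase gene NIA1 at 155 and 62.6 RPKM (1.30). Their 0 h values were 319 and 145 RPKM, so for NRT2.6, NRT1.1 and NIA1 the -Fe value was the one nearer to 0 h. NIA2, the second nitrate reductase gene, had a ratio of 0.40, the transcription factor gene NAC042 one of -1.21 (107 RPKM on -Fe and 248 RPKM on +Fe medium) and WRKY42 one of -0.50 (54.4 and 77.3 RPKM). For NAC042 and WRKY42 the +Fe value was the nearer to 0 h, at 226 and 92.8 RPKM. Outside the list, NRT1.8, which removes nitrate from the xylem sap, was at 16.5 RPKM on -Fe and 64.2 RPKM on +Fe medium (-1.90).

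Several genes known to be induced by darkness and lack of sugar were lower on -Fe medium. Of 12 listed genes 6 were among the 806, with 0 higher and 4 lower, and a list median of -1.03 beside 0.02 over all 806 genes. DIN6, an asparagine synthetase, was at 813 RPKM on -Fe and 3756 RPKM on +Fe medium (-2.21). DIN3, a subunit of the branched-chain ketoacid dehydrogenase, was at 145 and 469 RPKM (-1.69), the beta-xylosidase gene BXL1 at 49.5 and 109 RPKM (-1.12) and DIN10, of the raffinose synthase family, at 670 and 1293 RPKM (-0.95). DIN4 and EXL2 were not past the threshold, at -0.32 and 0.39. The list for branched-chain amino acid and lysine breakdown also holds PRODH1, the proline dehydrogenase. PRODH1 was at 6903 RPKM on -Fe and 14604 RPKM on +Fe medium (-1.08) and MCCA, a subunit of methylcrotonyl-CoA carboxylase, at 76.0 and 139 RPKM (-0.86). The other 8 of the 10 genes of that list were not among the 806. For PRODH1 and DIN3 the -Fe values were close to the 0 h values of 6804 and 148 RPKM.

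The remaining genes of the 12 lowest had varied roles. MIOX4, an inositol oxygenase, was at 3.68 RPKM on -Fe and 91.0 RPKM on +Fe medium (-4.30), and PMT6, of the polyol transporter family, at 20.6 and 83.6 RPKM (-1.97). AT2G41810, a DUF642 protein, was at 340 RPKM on -Fe and 2101 RPKM on +Fe medium (-2.62). GAT1_2.1, a glutamine amidotransferase-like protein, was at 111 and 498 RPKM (-2.15), and the alanine:glyoxylate aminotransferase AGT at 10.7 and 35.7 RPKM (-1.65). PIRL8, a leucine-rich repeat protein, was at 12.3 and 51.2 RPKM (-1.97), the dormancy and auxin associated AT2G33830 at 415 and 1386 RPKM (-1.74) and AT3G49160, annotated as a pyruvate kinase, at 1.58 and 10.1 RPKM (-2.11). AT3G49160 and GAT1_2.1 had 0 h values of 16.4 and 327 RPKM, above their -Fe values, while MIOX4, PMT6, PIRL8 and AGT were under 10 RPKM at 0 h. GAT1_2.1 and AT3G49160 share 553 and 291 exon bases with genes on the opposite strand.

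Among 14 genes of rapid stress and touch responses, 4 were in the table and 1 was past the threshold. RBOHD, an NADPH oxidase that makes reactive oxygen species, was at 150 RPKM on -Fe and 31.7 RPKM on +Fe medium (2.21). ZAT12 was at 6582 and 6456 RPKM (0.03) and ERF6 at 4467 and 4538 RPKM (-0.02), and TCH3 had a ratio of -0.50. No gene of a list of 12 clock genes was among the 806. The 3 most abundant genes differed little between the media. AT1G52070, a jacalin-type lectin, was at 69318 RPKM on -Fe and 64499 RPKM on +Fe medium (0.10), its relative AT1G52060 at 41716 and 42848 RPKM (-0.04), and the glutathione transferase gene GSTU19 at 35470 and 33073 RPKM (0.10).

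Set beside 0 h, the higher and the lower genes were placed differently. The median level of the 55 higher genes was 55.0 RPKM on -Fe and 14.8 RPKM on +Fe medium at 18 h, and 26.6 RPKM at 0 h, with median log2 differences from 0 h of 0.58 and -0.65. The median level of the 92 lower genes was 80.5 RPKM on -Fe and 175 RPKM on +Fe medium, and 87.9 RPKM at 0 h, with median differences of 0.01 and 1.1. Both differences rest on the same 0 h value. The median of the 92 genes on +Fe medium was furthest from 0 h at 6 h (2.24) and reached 1.87, 1.20, 1.01 and 0.32 at 12, 24, 30 and 36 h. The -Fe medians at 6, 12, 24, 30 and 36 h were 1.02, 0.47, -0.41, -0.92 and -0.51. Members lay on both sides of 0 h on -Fe medium at 18 h, with quartiles of -0.52 and 0.48.

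Most genes past the threshold at 18 h were past it in the same direction at other times, in groups that share no library with those of 18 h. At 6, 12, 24, 30 and 36 h, the genes also higher numbered 25, 32, 40, 49 and 51 of the 55 (45.5%, 58.2%, 72.7%, 89.1% and 92.7%), which is 33.8%, 36.8%, 53.3%, 53.8% and 64.6% of the genes higher at each of those times. For the 92 lower genes the numbers were 75, 80, 90, 91 and 69 (81.5%, 87.0%, 97.8%, 98.9% and 75%), or 39.9%, 42.1%, 37.0%, 43.1% and 62.2% of the lower genes of those times. Of all 806 genes, 9.18%, 10.8%, 9.31%, 11.3% and 9.8% were higher and 23.3%, 23.6%, 30.1%, 26.2% and 13.8% lower, together 32.5%, 34.4%, 39.5%, 37.5% and 23.6%. As a share of the 18 h genes, the overlap of the higher genes was thus largest with 30 h and 36 h, and that of the lower genes with 24 h and 30 h. All 806 genes are in the table because of differences in these libraries, which bears on every such count. Genes are not independent replicates, and as a description over the 806, the Pearson correlations of the 18 h ratios with those of 6, 12, 24, 30 and 36 h were 0.60, 0.73, 0.77, 0.89 and 0.85, with Spearman values of 0.52, 0.67, 0.62, 0.80 and 0.73.

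At all 6 times 19 genes were higher and 52 lower. The 19 include IRT1, IRT2, FRO4, bHLH38, bHLH101, MTP3, COPT2, NRT1.1 and NIA1, and the 52 include NRT2.6, MIOX4, DIN6, DIN3, PRODH1 and PMT6. A change past the threshold at 18 h in one direction and at no other time was found for 2 genes. These were SLT1 (245 RPKM on -Fe and 133 RPKM on +Fe medium, 0.88) and AT5G02480 (479 and 264 RPKM, 0.85), both annotated as HSP20-like chaperones. Against the mean of +Fe at 12 h and 24 h their ratios were 0.55 and 0.62, under the threshold. No gene was lower at 18 h alone.

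A further group first passed the threshold at 18 h and was past it at 24, 30 and 36 h as well, with 8 higher and 11 lower genes. The 8 higher genes were FRO3, BTSL1, the alternative NAD(P)H dehydrogenase gene NDB4 (4.38 RPKM on -Fe and 0.823 RPKM on +Fe medium, 1.56), ORG1 (496 and 242 RPKM, 1.03), the pectin methylesterase gene PME41 (232 and 84.3 RPKM, 1.45), and AT5G05250, AT1G12030 and AT4G35720, whose functions are not given in the annotation. At 6, 12, 18, 24, 30 and 36 h the ratios of AT5G05250 were 0.10, 0.70, 1.64, 1.82, 3.07 and 3.14, and those of BTSL1 -0.30, 0.42, 1.28, 1.24, 2.36 and 2.89. BTSL1 and FRO3 share 471 and 24 exon bases with genes on the opposite strand.

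The 11 lower genes held the 3 ferritin genes FER1, FER3 and FER4. HEMA1, which catalyses the entry step of tetrapyrrole and so haem synthesis, was at 112 RPKM on -Fe and 266 RPKM on +Fe medium (-1.24). ABCI8, which takes part in the assembly of iron-sulfur clusters in plastids, was at 64.3 and 121 RPKM (-0.90). The others were AT3G49160, AT2G19970, LOL1, AT3G43670 (a copper amine oxidase), AT3G20510 and AT2G36885. Over the 6 times HEMA1 had ratios of -0.34, -0.40, -1.24, -1.57, -1.89 and -2.35 and ABCI8 of -0.42, -0.30, -0.90, -1.71, -1.60 and -1.67, while FER1 stood at 0.13 at 12 h before its -1.52 at 18 h. Some of the 11 came close to the threshold before 18 h, such as AT3G20510 (-0.75 at 12 h, which is -0.749 before rounding) and FER3 (-0.73 at 12 h).

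**Figure D4:**
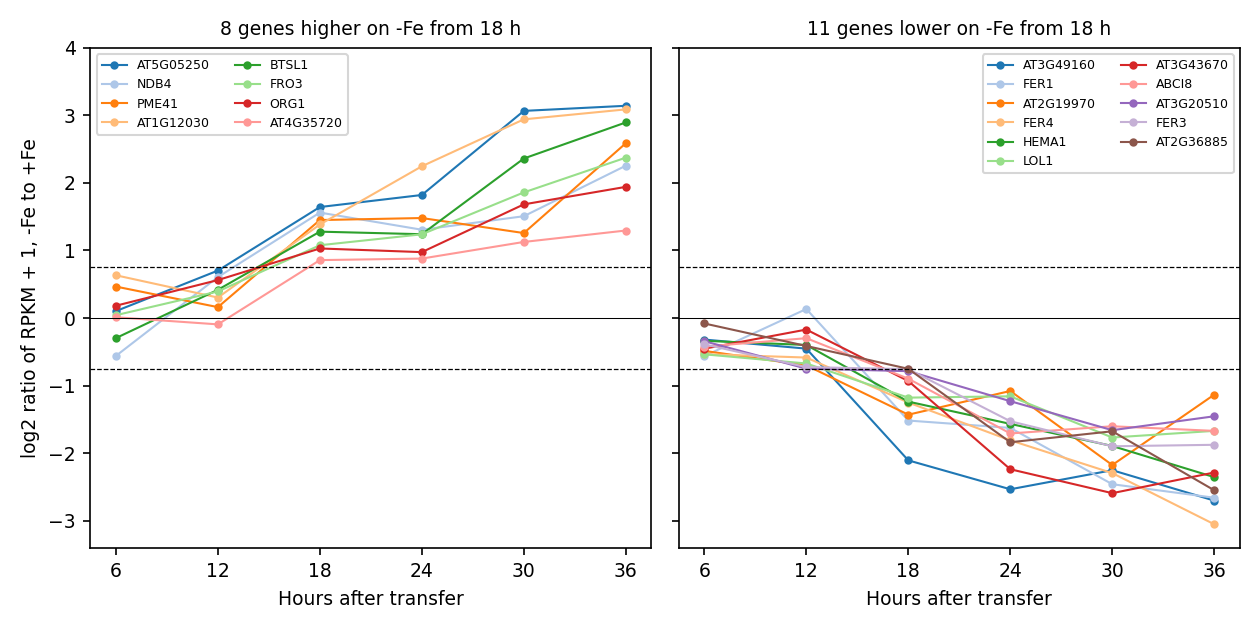
Log2 ratio of RPKM + 1, -Fe over +Fe (vertical), by hours after transfer (horizontal) for the 8 genes higher and the 11 genes lower on -Fe medium at 18, 24, 30 and 36 h and not at 6 h or 12 h, each line 1 gene. The dashed lines mark 0.75 and -0.75. All 19 lines cross the threshold between 12 h and 18 h, as the choice of genes fixes.

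The small number of genes at 18 h can also be described by the genes that were past the threshold in 1 direction at both 12 h and 24 h but not at 18 h. There were 116, of which 12 were higher and 104 were lower. The median ratio of the 104 was -0.33 at 18 h, between -1.12 at 12 h and -1.56 at 24 h. At 18 h 89 of the 104 were below 0, and 40 were under 0.25 in size. Their median levels were 90.8, 102 and 57.1 RPKM on -Fe medium at 12, 18 and 24 h, and 194, 110 and 167 RPKM on +Fe medium. Relative to the mean of 12 h and 24 h on the log2 scale, the 18 h value of these genes was a median of 0.42 higher on -Fe medium (97 of 104 genes) and 0.72 lower on +Fe medium (101 of 104). The 2 epidermis markers of the table, of 18 listed, were among the 104. GL2 had ratios of -1.12, -0.10 and -1.64 at 12, 18 and 24 h, with 188, 173 and 121 RPKM on -Fe and 410, 187 and 378 RPKM on +Fe medium. GL3 had ratios of -1.04, 0.19 and -2.14, with 24.6, 32.6 and 13.7 RPKM on -Fe and 51.6, 28.5 and 64.2 RPKM on +Fe medium. The cap markers did not pass the threshold at these times, with ratios of 0.13, 0.06 and 0.14 for BRN1 and 0.46, 0.10 and 0.71 for CEL5. The part of these markers' cells in the result was not tested. The rule picks genes with large ratios at 12 h and 24 h and a small one at 18 h, so that the media come together is fixed by the choice. The rule also favours a shift of each medium toward the other at 18 h. The counts of genes shifted and the split between the media are therefore not free of it.

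The 18 h value was also set beside the mean of 12 h and 24 h over all 806 genes, which include those chosen this way. On -Fe medium it lay at least 0.75 below that mean for 14 genes and above it by as much for 18 genes. On +Fe medium the numbers were 73 below and 12 above. The 104 chosen lower genes supplied 49 of the 73 and 10 of the 18. The 12 chosen higher genes supplied 3 of the 14 on -Fe medium and 3 of the 12 on +Fe medium. These counts are therefore not free of the choice either. The median differences over the 806 genes were 0.13 on -Fe and 0.03 on +Fe medium. With the mean of +Fe at 12 h and 24 h in place of +Fe at 18 h as the control, 263 genes passed the threshold in place of 147. The same +Fe values were used to pick the 116 genes, and this control mixes time with medium, so the count is not a separate check. It was 171 with +Fe at 0 h and 202 with the mean of the 6 +Fe groups after transfer.

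**Figure D5:**
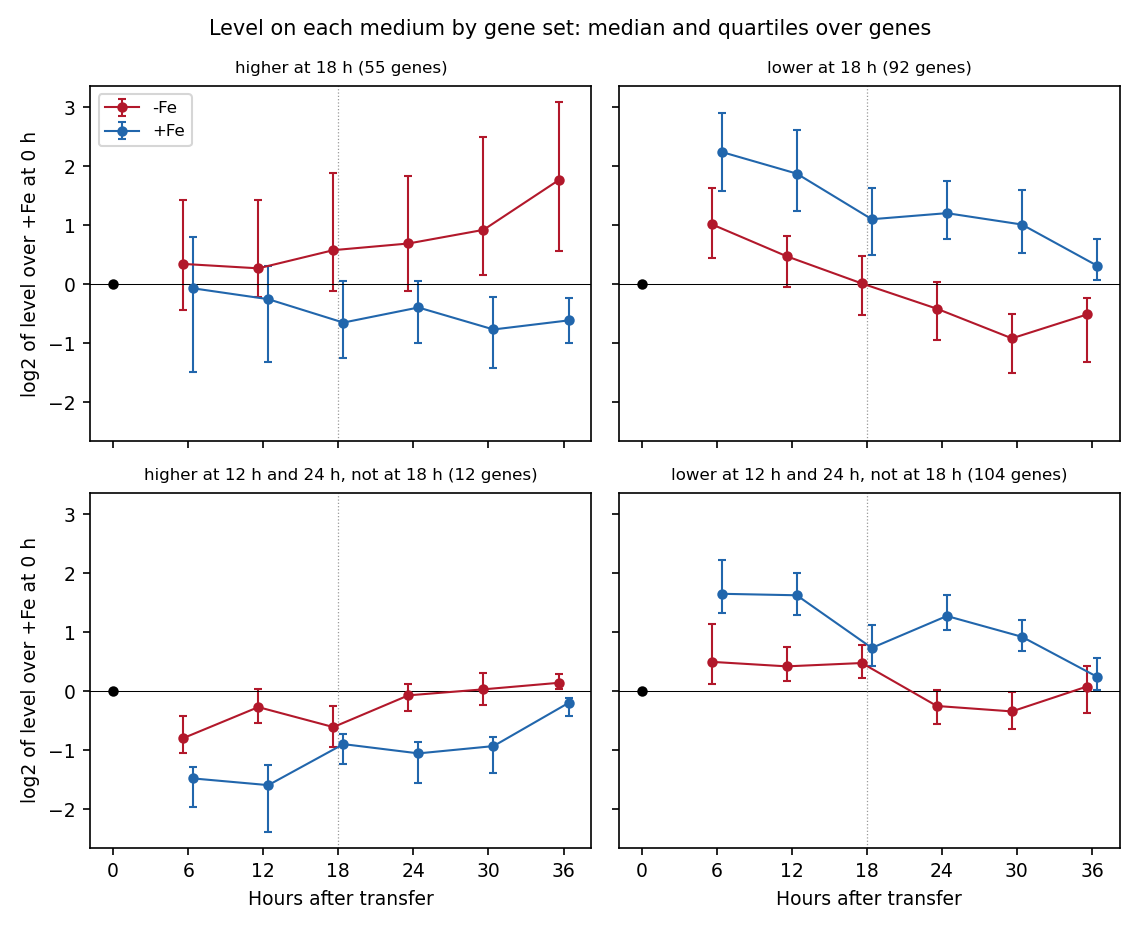
Log2 of the level on -Fe (red) and +Fe medium (blue) over the +Fe level at 0 h (vertical) by hours after transfer (horizontal), as the median over genes with bars to the quartiles over genes, which are not errors over samples. In the 104 genes lower at 12 h and 24 h but not at 18 h, the +Fe median is 0.73 at 18 h beside 1.62 at 12 h and 1.27 at 24 h.

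The 5 genes with the largest mean ratio at 12 h and 24 h in each direction are given with their values. On the lower side AT4G27450 had ratios of -2.04, -0.52 and -3.18 at 12, 18 and 24 h, the acyl carrier protein gene ACP4 -1.81, -0.67 and -3.00, the calmodulin-like AT2G41090 -1.59, -0.40 and -2.92, CYP706A1 -2.84, -0.50 and -1.50, and the efflux carrier gene DTX1 -1.62, -0.30 and -2.59. ACP4 had 21.7, 18.1 and 5.74 RPKM at these times on -Fe medium, against 78.5, 29.3 and 53.0 RPKM on +Fe medium. CYP706A1 was at only 0.57 RPKM on -Fe and 1.23 RPKM on +Fe medium at 18 h. With a pseudocount of 0.1 its 18 h ratio was -0.98, past the threshold. On the higher side were PP2-A10 (3.58, 0.52 and 1.01), AT3G63380, a predicted cation pump (2.05, 0.02 and 1.58), AT1G10160 (2.44, 0.41 and 1.05), the cytokinin oxidase gene CKX4 (1.43, 0.22 and 1.15) and the sulfur-deficiency gene LSU2 (1.06, 0.02 and 1.31). AT1G10160 had 615, 309 and 669 RPKM on -Fe and 113, 232 and 323 RPKM on +Fe medium, so that here the -Fe value stood apart at 18 h. Of the 12 higher genes, 11 had an 18 h level on -Fe medium below the mean of 12 h and 24 h (median -0.33), and 12 had one on +Fe medium above it (median 0.47). The choice of genes favours these directions too. With the mean of +Fe at 12 h and 24 h as the control, 8 of these 10 named genes were past the threshold at 18 h, among them PP2-A10 at 1.26 and ACP4 at -1.81, and AT3G63380 (0.67) and AT1G10160 (0.50) were not. The 10 genes were chosen by their ratios to the same +Fe values, so this count is largely set by the choice.

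Short motifs in the 250 bases before the annotated gene start were counted on both strands for the genes past the threshold at 18 h. CACGTG, the G-box bound by many bHLH and bZIP factors, was present in 5 of 55 windows of the higher genes (9.09%), 14 of 91 of the lower genes (15.4%), 8.08% of the genes not past the threshold and 6.49% of 27443 protein-coding genes. TATCCA, an element known from sugar-regulated amylase promoters of rice, was present in 5 of 55 (9.09%), 26 of 91 (28.6%), 14.2% and 13.6% of the same sets. ACGTG, which lies within CACGTG and is therefore not independent of it, was present in 23.6%, 36.3%, 27.4% and 22.9%. These are counts of letters, not of bound sites. Windows of 3 higher genes with CACGTG are shown because they belong to genes described above, in the RefSeq annotation of TAIR10.1, 5′ to 3′ on the strand of the gene, with the motif in capitals. They are OPT3 (chr4:9250344-9250593, minus strand), bHLH38 (chr3:21085246-21085495, minus strand) and AT5G05250 (chr5:1558487-1558736, minus strand), which holds the motif at 2 places.
OPT3: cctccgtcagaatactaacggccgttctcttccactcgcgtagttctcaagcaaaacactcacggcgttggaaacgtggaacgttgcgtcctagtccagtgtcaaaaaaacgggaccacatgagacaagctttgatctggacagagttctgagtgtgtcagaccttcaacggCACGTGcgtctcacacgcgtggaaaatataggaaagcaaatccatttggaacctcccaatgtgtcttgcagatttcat
bHLH38: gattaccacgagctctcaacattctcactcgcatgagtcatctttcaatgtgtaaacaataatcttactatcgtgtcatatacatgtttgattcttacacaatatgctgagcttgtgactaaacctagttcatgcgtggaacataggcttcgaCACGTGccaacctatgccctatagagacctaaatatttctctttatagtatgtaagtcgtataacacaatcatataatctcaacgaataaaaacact
AT5G05250: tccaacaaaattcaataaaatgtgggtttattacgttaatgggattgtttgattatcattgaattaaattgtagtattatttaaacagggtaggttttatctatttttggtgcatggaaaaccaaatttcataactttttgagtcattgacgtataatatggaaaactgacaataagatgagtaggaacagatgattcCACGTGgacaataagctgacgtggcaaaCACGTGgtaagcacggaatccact

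Windows of 4 lower genes with TATCCA, or TGGATA where it is read on the other strand, from the same annotation and with the same orientation, show how the motif is spaced in single and repeated copies. They are MIOX4 (chr4:13297445-13297694, plus strand), GAT1_2.1 (chr1:5181403-5181652, minus strand, 2 copies), the beta-amylase gene BAM9 (chr5:6225706-6225955, plus strand) and ACHT5, a thioredoxin (chr5:24707195-24707444, plus strand, 4 copies). BAM9 was at 191 RPKM on -Fe and 586 RPKM on +Fe medium (-1.62), and ACHT5 at 276 and 484 RPKM (-0.81). The 4 copies in ACHT5 began 188, 60, 42 and 18 bases before the gene start.
MIOX4: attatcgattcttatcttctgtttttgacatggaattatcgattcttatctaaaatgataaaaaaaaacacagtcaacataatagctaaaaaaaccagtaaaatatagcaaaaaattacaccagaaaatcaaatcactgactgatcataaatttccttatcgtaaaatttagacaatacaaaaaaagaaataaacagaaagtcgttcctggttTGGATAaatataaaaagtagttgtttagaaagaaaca
GAT1_2.1: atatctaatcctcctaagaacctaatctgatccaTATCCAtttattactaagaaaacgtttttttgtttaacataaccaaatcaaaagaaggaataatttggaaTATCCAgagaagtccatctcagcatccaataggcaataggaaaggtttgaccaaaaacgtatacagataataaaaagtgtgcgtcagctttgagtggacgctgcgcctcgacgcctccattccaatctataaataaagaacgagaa
BAM9: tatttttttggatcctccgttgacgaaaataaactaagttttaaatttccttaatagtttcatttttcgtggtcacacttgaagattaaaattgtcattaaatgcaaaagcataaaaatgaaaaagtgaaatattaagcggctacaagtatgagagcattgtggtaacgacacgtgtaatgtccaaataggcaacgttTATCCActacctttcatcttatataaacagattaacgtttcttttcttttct
ACHT5: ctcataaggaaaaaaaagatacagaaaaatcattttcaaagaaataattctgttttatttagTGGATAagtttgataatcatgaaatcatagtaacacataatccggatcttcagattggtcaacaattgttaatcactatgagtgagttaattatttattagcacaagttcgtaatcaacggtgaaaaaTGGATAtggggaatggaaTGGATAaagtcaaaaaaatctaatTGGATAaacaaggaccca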

How the data were processed

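The authors checked reads with FastQC, aligned them to the TAIR10 genome by TopHat2, derived RPKM by RSubread and tested libraries with edgeR. What was deposited is a table of RPKM for 806 genes, with a single column for each of 13 groups of 3 libraries, and all 13 columns were used. How the 3 libraries were combined, the read total and the use of strand are not given in the sources used here, so overlapping, antisense and copied genes are less certain. Of the 147 genes past the threshold, 36 share exon bases with a gene on the opposite strand, 4 with one on the same strand and 4 match another place in the genome over at least 125 bases at 97% identity. The Methods name the SMARTer Low Input kit for cDNA, and the sample labels a directional poly(A) kit. Values times exon length summed to nearly the same total in each group, with a coefficient of variation of 0.325%, over the 806 genes alone, so they behaved as shares of these genes. Of 121 low values on -Fe and 36 on +Fe medium at 18 h, 14.9% and 0% were whole multiples within 0.05 of a common step, so reads were not recovered.

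Log2 ratios of the deposited RPKM, each with 1 added, were computed and genes counted at 0.75, with no test. The planned test on libraries could not be run. The genes and lists were chosen with earlier results of these data known. Named genes are the 12 highest and 12 lowest ratios at 10 RPKM or more in either group, the listed genes in the table, genes past the threshold at 18 h alone, the 5 genes in each direction with the largest mean ratio at 12 h and 24 h among those not past at 18 h, and the 3 most abundant. Others were named after their values were seen. All 806 locus identifiers matched the RefSeq annotation of TAIR10.1, from which symbols, exons and promoter windows were taken, and the windows were located by locus identifier and carry TAIR10.1 coordinates. The calculations were tested on simulated data and used Python 3.11.15, numpy 2.4.6, pandas 2.3.3, matplotlib 3.10.9, pyfaidx 0.9.0.4 and blastn 2.17.0. Alternatives were other pseudocounts, a minimum of 10 RPKM, a threshold of 1, centring on the median and other controls. No other genes were analysed here.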

Additional observations from a re-analysis of the deposited data

Results flagged for a closer look

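At 5 genes the difference at 18 h was past the threshold in one direction and that at another time past it in the opposite direction. With 1 value a group, none of these differences between times was tested. NIT4, a nitrilase that breaks down beta-cyanoalanine, had a log2 ratio of 0.77 at 18 h, against -1.9996 at 24 h, -0.77 at 30 h and -0.91 at 36 h. GH9B8, a glycosyl hydrolase, had 2.08 at 18 h (35.0 RPKM on -Fe and 7.50 RPKM on +Fe medium) and -0.96 at 6 h. NAC056, a transcription factor gene at 3.15 RPKM on -Fe and 0.48 RPKM on +Fe medium, had 1.49 at 18 h and -0.91 at 6 h. The peptide transporter gene PTR3 had -0.79 at 18 h and 0.87 at 36 h. The coumarin gene F6'H1 had -0.81 at 18 h and 1.65 at 36 h.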

How the results depend on the processing

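The 147 genes past the threshold at 18 h became 94 with a threshold of 1 and 263 with the mean of +Fe at 12 h and 24 h as the control. The 55 higher genes became 88 against +Fe at 0 h. The 92 lower genes became 50 with a threshold of 1, 188 with the 12 h and 24 h control, and 148 with the mean of all 6 +Fe groups after transfer. Without overlapping or copied genes, an alternative chosen after seeing the data, they became 61 of 592. That count comes from 592 genes in place of 806, so it falls for that reason too. Higher genes made up 37.4% of those past the threshold, but 46.8% with a threshold of 1, 51.5% against 0 h and 26.7% with the mean of the 6 +Fe groups. The total stayed within 1.5 times with a pseudocount of 0.1 (151) or 10 (110), a mean of at least 10 RPKM (134), centring (146), 0 h as the control (171), the mean of the 6 groups (202) and without overlapping or copied genes (105 of 592). With the 12 h and 24 h control, the lists for zinc, copper and manganese and for rapid stress and touch had 2 genes past the threshold in place of 1 each. The 116 genes past it at 12 h and 24 h only ranged from 86 to 117 over the alternatives. Of 60 named genes, 0 changed sides of the threshold on centring and 1 with a pseudocount of 0.1 (CYP706A1 -0.98). With a pseudocount of 10, 4 did so (IMA2 0.71, F6'H1 -0.70, FER3 -0.72 and AHA7 0.45), and 11 did so with the 12 h and 24 h control. Of these 11, 8 had been chosen by their ratios at 12 h and 24 h, which use the same +Fe values. No paired analysis was possible because the table holds 1 value per group, and leaving out each replicate was not run for the same reason.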

Other observations

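Families of genes, chosen after their values were seen, are given beside the shares over all 806 genes, 6.82% higher and 11.4% lower. The 3 indole glucosinolate methyltransferase genes in the table were all lower on -Fe medium. IGMT2 was at 230 RPKM on -Fe and 504 RPKM on +Fe medium (log2 ratio -1.13), IGMT4 at 177 and 355 RPKM (-0.998) and IGMT3 at 32.0 and 59.6 RPKM (-0.88), and IGMT2 and IGMT3 are so alike that reads may be split between them. Of 6 proteins with a C1 domain, 4 were lower, from AT2G44380 (76.9 RPKM on -Fe and 199 RPKM on +Fe medium, -1.36) to AT2G44370 (307 and 550 RPKM, -0.84). The 3 DUF642 genes were split. DGR2 was at 237 RPKM on -Fe and 69.6 RPKM on +Fe medium (1.75) and DGR1 at 8735 and 4584 RPKM (0.93), while AT2G41810 was the third lowest of all genes. Of 16 genes found by the name cytochrome P450, 1 was lower and 0 higher. CYP78A9, a further gene of this family spelled otherwise in the annotation, was missed by that search and had a ratio of 0.72, short of the threshold. Of 8 glutathione transferase genes, GSTF6 (-0.97) and GSTF7 (-0.79) were lower. Of 22 genes whose annotation names a protein kinase or a kinase family, 6 were lower and 0 higher. They are not all protein kinases, since AT3G49160, annotated as a pyruvate kinase, is among the 6. Of 5 peroxidase and 5 expansin genes 1 each was lower.

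Other metabolic genes that were lower on -Fe medium included PCK2, a phosphoenolpyruvate carboxykinase (1475 RPKM on -Fe and 4021 RPKM on +Fe medium, -1.45), the inositol oxygenase gene MIOX2 (762 and 1635 RPKM, -1.10) and AGT2, an alanine:glyoxylate aminotransferase (1636 and 3451 RPKM, -1.08). Among the higher genes, the zinc finger gene STOP2 was at 39.9 RPKM on -Fe and 8.22 RPKM on +Fe medium (2.15), and the metallothionein gene MT1C at 203 and 50.8 RPKM (1.98). Both had 0 h values above their +Fe values, at 44.7 and 385 RPKM.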
